A study of Mus musculus with 4 samples.

Results

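Surface pit cells are the 884 of 4449 mouse stomach epithelial cells that the authors placed in cluster 2, the number their deposited cell table gives. They were examined in 4 libraries, 2 of GFP+ cells and 2 of Epcam+ cells, by summing raw counts of unique molecular identifiers (UMIs, 1 per captured RNA molecule) over the pit cells of each library. All cells came from female Rosa26iH2b-GFP mice, in which doxycycline switches on a green histone H2b-GFP from the Rosa26 locus. Doxycycline was given for 4 weeks, a chase of 6 weeks without it followed, and the stomach was taken at 14 weeks of age. GFP+ cells were sorted as Epcam-positive cells that still held the label after the chase, and Epcam+ cells as Epcam-positive cells without selection for it. Both sorts excluded cells with Cd45 or Cd31, the surface proteins of blood and endothelial cells. Sorted cells of 2 mice were combined, and no source shows that replicates 1 and 2 came from separate animals, so every p-value here measures the spread between libraries, which may be technical.

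Pit cells, also called foveolar or surface mucous cells, line the gastric surface and the pits that open onto it. They arise from dividing progenitors in the isthmus of the gland, move up towards the lumen and are shed there. Their gel-forming mucin, trefoil peptide and gastrokines make up much of the mucous layer that shields the epithelium from acid and pepsin. Mucous neck cells, the other mucous lineage of the gland, make a different mucin and lie below the isthmus.

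GFP+ 1 and 2 held 42 and 27 pit cells, against 363 and 452 in Epcam+ 1 and 2. Their summed depth was 2882762 and 1730595 UMIs in the GFP+ libraries, against 14472329 and 16135808 UMIs in the Epcam+ libraries. The pit cells of the GFP+ libraries were therefore fewer, and their median depth was higher. A GFP+ pit cell had a median of 66631 and 63533 UMIs in replicates 1 and 2, against 39342 and 34707 UMIs for an Epcam+ pit cell. Between 5.19% and 5.62% of the UMIs of a GFP+ pit cell were mitochondrial at the median, against 5.92% and 6.44% in Epcam+ pit cells. A doublet caller marked 0 and 0 pit cells of the GFP+ libraries and 3 and 4 of the Epcam+ libraries. One pair of libraries (GFP+ 2 and Epcam+ 1) shared 1 cell barcode and another pair (Epcam+ 1 and Epcam+ 2) shared 3, none of them a pit cell in both. When all cells were clustered again at the lowest resolution that gave 10 or more clusters (11 were found), 875 of the 884 pit cells (99.0%) fell in 1 cluster, and 95.6% of the 915 cells of that cluster were pit cells.

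The 5 markers of pit cells were all present at high levels. Levels between clusters are given as counts-per-million (CPM), the UMIs of a gene scaled by all UMIs of the same library and cluster, without a correction for transcript length. Levels of different genes are set side by side only as shares of UMIs. Tff1, the trefoil peptide of surface mucus, had 78148 and 95319 CPM in GFP+ pit cells and 52037 and 55126 CPM in Epcam+ pit cells. Gkn1, a secreted gastrokine, had 31609 and 53316 CPM in GFP+ pit cells and 24826 and 31927 CPM in Epcam+ pit cells. Gkn2, the partner gene of Gkn1 on chromosome 6, had 30076 and 51405 CPM in GFP+ pit cells and 20687 and 29129 CPM in Epcam+ pit cells. These 3 genes were the most abundant transcripts of pit cells in the mean over libraries. Muc5ac, the gel-forming mucin of the gastric surface, had 2985 and 3243 CPM in GFP+ pit cells and 2517 and 2974 CPM in Epcam+ pit cells. Krt19, a keratin of simple epithelia, had 3299 and 2319 CPM in GFP+ pit cells and 2214 and 1639 CPM in Epcam+ pit cells. The next genes by abundance were Tff2, a trefoil peptide of neck cells, at a mean of 20647 CPM, the mitochondrial transcripts mt-Atp6, mt-Co3 and mt-Co1, the actin-binding Tmsb4x, Gm42418 and, at 8307 CPM, Pgc, which encodes pepsinogen C.

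The markers were not confined to pit cells. Tff1 averaged 70158 ± 20423 CPM in pit cells (SD, n = 4 libraries) and 30233 CPM in cluster 3, one of the 2 isthmus clusters of the study. It averaged 25760 CPM in cluster 4, the other isthmus cluster (3 libraries, since GFP+ 2 held under 10 of its cells), and 134 CPM in neck cells (cluster 0). Gkn1 averaged 35420 ± 12372 CPM in pit cells, against 11867 CPM in cluster 3, 9233 in cluster 4 and 42.8 in neck cells. In these cluster means the order was thus pit, isthmus and far below them neck for both genes. Muc5ac averaged 2930 ± 302 CPM in pit cells, against 1912 CPM in cluster 3, 1279 in cluster 4 and 13.4 in neck cells. Krt19 averaged 2368 ± 689 CPM in pit cells, against 1188 CPM in cluster 3, 970 in cluster 4 and 157 in neck cells. Muc5ac showed the smallest gap between pit and isthmus cells of the 5. RNA free in the suspension can add UMIs of abundant genes to any cell. With every cell thinned to 26019 UMIs, a Gkn1 UMI was found in 95.1% to 100% of pit cells of a library, but also in 29.4% to 86.3% of neck cells. This left out 1 and 0 pit cells and 29 and 17 neck cells of GFP+ 1 and 2 as shallower, and 36 and 52 pit cells and 265 and 416 neck cells of Epcam+ 1 and 2. At this depth cluster 3 cells of Epcam+ 1 and 2 had a mean of 157 and 257 Gkn1 UMIs but a median of 9 and 14.5. For Tff1 their mean was 507 and 534 UMIs and their median 237.5 and 144.5. In GFP+ 1, with 17 cells, mean and median were 240 and 78 for Gkn1 and 933 and 928 for Tff1. The Gkn1 means of cluster 3 thus rest largely on part of its cells. A Muc5ac UMI was found in 100% and 96.3% of GFP+ pit cells and 93.3% and 96.0% of Epcam+ pit cells. In neck cells the share with a Muc5ac UMI was 9.20% in GFP+ 1 and 0 of 51 cells in GFP+ 2, which allows a share of up to 5.88%, and it was 14.8% and 25% in Epcam+ 1 and 2. Before thinning the Muc5ac shares ran from 94.8% to 100% in pit cells and from 5.88% to 21.2% in neck cells, at median depths of 34707 to 66631 and 21521 to 34587 UMIs per cell.

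**Figure D1:**
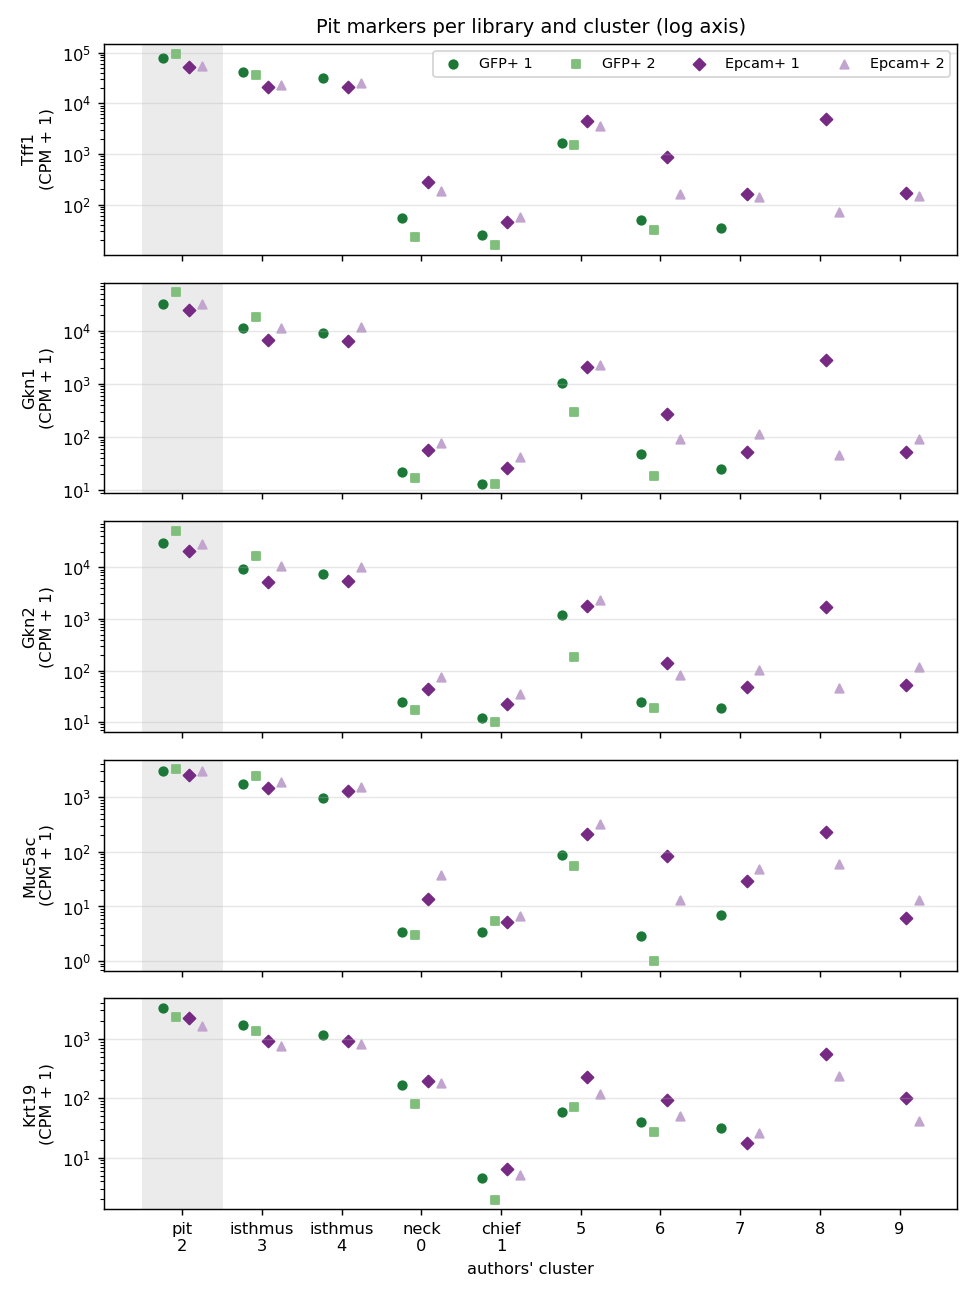
Levels of the 5 pit cell markers in each cluster, 1 point per library, as CPM plus 1 on a log axis, for clusters with at least 10 cells in the library. All 5 stand highest in cluster 2 and next in isthmus clusters 3 and 4; Gkn1 averages 35420 CPM in pit cells, 11867 CPM in cluster 3 and 42.8 CPM in neck cluster 0.

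Markers of other cell types were low in pit cells with 2 exceptions. Neck markers summed to 11706 to 21031 CPM in GFP+ pit cells and 24376 to 25950 CPM in Epcam+ pit cells, nearly all of it Tff2. Muc6, the mucin that defines neck cells, averaged 50.9 CPM in pit cells, Pga5 (pepsinogen) 67.4 CPM and Cftr 0.63 CPM. Chief cell markers, mainly Pgc, summed to 6983 to 14965 CPM in GFP+ pit cells and 11522 to 11661 CPM in Epcam+ pit cells. Both lists thus rest on secretory transcripts that are among the most abundant of the whole gland. Endocrine markers summed to 19.6 to 42.7 CPM in GFP+ pit cells and 41.3 to 71.9 CPM in Epcam+ pit cells. Parietal markers summed to 8.67 to 24.3 CPM in GFP+ pit cells and 9.33 to 13.4 CPM in Epcam+ pit cells. Of the tuft markers only Avil, an actin-binding villin family protein, exceeded 1 CPM, at 68.3 and 56.1 CPM in GFP+ pit cells and 33.7 and 35.9 CPM in Epcam+ pit cells, while Dclk1, Trpm5 and Pou2f3 were at or near 0. Squamous markers were at 0 in GFP+ pit cells and at 0.276 to 0.620 CPM in Epcam+ pit cells, and Ptprc and Pecam1 were at 0, since the authors had removed cells with a count of either.

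To find the genes that set pit cells apart, the level of each gene was compared with every other cluster inside each library, after TMM scaling of the cluster sums, as log2(CPM + 1). A gene was taken as high in pit cells if it exceeded every cluster with at least 10 cells by at least 1 log2 unit in all 4 libraries. Of 9801 genes with at least 10 CPM in some cluster, 34 met this rule (0.347%), and 0 lay as far below every other cluster (0%), or 4 without Epcam+ 2. The cells were clustered on these same transcripts, so the counts describe the cluster and are not a test. The next-highest cluster was an isthmus cluster for nearly all of them (cluster 3 for 20, cluster 4 for 13) and cluster 7 for 1. The markers Gkn2, Gkn1, Tff1 and Krt19 were among the 34, while Muc5ac exceeded cluster 3 by only 0.89 log2 units in the mean and was not. Cluster 4 of GFP+ 2, with 8 cells, was outside the rule, and its gap to pit cells was narrower. Without TMM it held 72080 CPM of Tff1 and 37224 CPM of Gkn1, against 95319 and 53316 CPM in pit cells. Gkn2 was at 36920 against 51405 CPM and Krt19 at 1561 against 2319 CPM. Across the 9801 genes the profile of pit cells was closest to cluster 3 (Spearman's rho 0.934), then cluster 4 (0.909) and neck cells (0.889), and farthest from cluster 6 (0.568), an endocrine cluster. These rank correlations are across genes, which are not independent.

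Of the 34 genes, 4 were on the list of pit secreted products and 3 on that of detoxifying and redox enzymes. The gastrokines are shown with their upstream sequence because their levels moved together from cell to cell, as described further on, and Gsta1 is shown because it tracked them. The 250 bases before the start of each gene are given from RefSeq (GRCm38.p6), 5′ to 3′ on the strand of the gene, with motif matches in capitals. The letters AGATAA (read by GATA factors), TGTTTAC (forkhead factors) and TATAAA (the TATA box) were searched on both strands.
Gkn1, chr6:87350916-87351165, minus strand: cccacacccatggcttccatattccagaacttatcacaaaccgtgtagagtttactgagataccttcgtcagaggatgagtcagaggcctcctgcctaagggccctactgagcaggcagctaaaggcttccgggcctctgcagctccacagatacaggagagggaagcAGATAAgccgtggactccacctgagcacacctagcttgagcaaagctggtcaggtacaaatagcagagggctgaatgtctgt
Gkn2, chr6:87373115-87373364, plus strand: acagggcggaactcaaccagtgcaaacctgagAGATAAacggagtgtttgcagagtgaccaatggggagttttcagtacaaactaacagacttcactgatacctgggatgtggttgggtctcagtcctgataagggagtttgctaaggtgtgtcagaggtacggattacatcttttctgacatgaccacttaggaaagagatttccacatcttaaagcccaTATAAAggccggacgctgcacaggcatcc
Gsta1, chr9:78230419-78230668, plus strand: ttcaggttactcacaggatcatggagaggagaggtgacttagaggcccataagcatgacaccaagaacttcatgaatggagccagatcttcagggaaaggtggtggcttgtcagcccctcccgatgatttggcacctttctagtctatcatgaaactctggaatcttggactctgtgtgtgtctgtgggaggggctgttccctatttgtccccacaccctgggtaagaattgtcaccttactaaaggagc
The capitals mark AGATAA with its first base 82 bases before the start of Gkn1, and AGATAA and TATAAA with first bases 218 and 29 bases before the start of Gkn2. No match was found in the window of Gsta1. Of the 34 genes, 33 had an entry in the table and 25 a promoter. AGATAA was in 3 of these 25 and in 9.99% of the 32851 promoters of the table at this length, TATAAA in 6 of 25 and 12.4%, and TGTTTAC in 0 of 25 and 3.17%. A match describes the letters and is not a bound site.

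The gene with the widest gap to the next cluster was 2210407C18Rik, for which no role is given here. It had 1358 and 1040.1 CPM in GFP+ pit cells and 618 and 452 CPM in Epcam+ pit cells, and averaged 116 CPM in cluster 3, 212 in cluster 4 and 1.20 in neck cells. It lay 2.48 log2 units above the next cluster in the mean over libraries. Capn9, a calpain protease of the digestive tract, had 68.0 and 57.8 CPM in GFP+ pit cells and 38.1 and 39.7 CPM in Epcam+ pit cells, against a mean of 7.95 CPM in cluster 3. Rep15, which encodes an effector of the vesicle GTPase Rab15, had 133 and 185 CPM in GFP+ pit cells and 62.5 and 74.4 CPM in Epcam+ pit cells, against a mean of 26.8 CPM in cluster 3. For these 3 genes every GFP+ library stood above every Epcam+ library. Smim24, a small membrane protein, averaged 56.7 ± 30.1 CPM in pit cells and 9.23 CPM in cluster 3. Mal, a proteolipid of apical membrane traffic, averaged 348 ± 112 CPM in pit cells, 132 CPM in cluster 3 and 157 CPM in cluster 4. Mucl3, a mucin-like glycoprotein, averaged 2846 ± 851 CPM in pit cells, against 1333 CPM in cluster 3 and 59.1 in neck cells.

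Several of the 34 encode enzymes. Gsta1, a glutathione S-transferase that conjugates reactive compounds, had 5671 and 5760 CPM in GFP+ pit cells and 3519 and 3361 CPM in Epcam+ pit cells. It averaged 1738 CPM in cluster 3, 1913 in cluster 4 and 14.0 in neck cells. Gsta2 averaged 86.4 ± 24.6 CPM and Gm3776 305 ± 87.3 CPM in pit cells. Gsta1, Gsta2 and Gm3776 are close copies on chromosome 9, so how their reads were divided is uncertain. Aldh3a1, an aldehyde dehydrogenase, had 265 and 433 CPM in GFP+ pit cells and 238 and 293 CPM in Epcam+ pit cells, with means of 111 CPM in cluster 3 and 0.57 in neck cells. Sptssb, a small subunit of serine palmitoyltransferase, which starts sphingolipid synthesis, had 668 and 805 CPM in GFP+ pit cells and 502 and 524 CPM in Epcam+ pit cells, with a mean of 198 CPM in cluster 3. Pit cells thus held about the same order of difference from cluster 3 for these 3 enzymes, 1.64, 1.75 and 1.90 log2 units. Ptgr1, a reductase of prostaglandins and leukotriene B4, averaged 1023 ± 147 CPM in pit cells and 453 CPM in cluster 3. Ces2c, a carboxylesterase, averaged 61.8 ± 19.2 CPM in pit cells and 22.5 CPM in cluster 3. Papss2, which makes the sulfate donor used to sulfate mucins, averaged 131 ± 20.9 CPM in pit cells and 66.5 CPM in cluster 3, and Ugdh, which makes UDP-glucuronate, averaged 414 ± 58.5 CPM in pit cells and 220 CPM in cluster 3.

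Other genes of the 34 encode transporters, ligands and structural proteins, among others. Slc5a5, the sodium iodide symporter, had 195 and 133 CPM in GFP+ pit cells and 107 and 90.1 CPM in Epcam+ pit cells, with means of 55.0 CPM in cluster 3 and 0.32 in neck cells. Shh, the secreted hedgehog ligand, had 21.5 and 28.9 CPM in GFP+ pit cells and 13.3 and 15.1 CPM in Epcam+ pit cells, with means of 3.43 CPM in cluster 3 and 0.78 in neck cells. The Shh level was low in all clusters, and the next-highest by the rule was cluster 4, at a mean of 3.58 CPM. At the common depth of 26019 UMIs, a Shh UMI was found in 26.8% (95% Wilson interval 15.7% to 41.9%) and 44.4% (27.6% to 62.7%) of GFP+ pit cells and in 17.1% (13.4% to 21.6%) and 20.3% (16.6% to 24.5%) of Epcam+ pit cells. In the Epcam+ libraries the same share was 2.97% and 2.40% of cluster 3 cells, 2.92% and 9.87% of cluster 4 cells and 2.27% and 2.50% of neck cells. Unthinned, 47.6% and 63.0% of GFP+ and 23.4% and 24.1% of Epcam+ pit cells had a Shh UMI. The intervals cover counting error only. Fhl1, a LIM domain protein, averaged 57.5 ± 25.8 CPM in pit cells and 11.9 CPM in cluster 3. Slc45a3 averaged 80.8 ± 21.3 CPM in pit cells and 36.4 CPM in cluster 3. Anxa3, an annexin that binds membranes with calcium, averaged 179 ± 26.4 CPM in pit cells and 96.2 CPM in cluster 3. Mllt3 and Prr13 averaged 168 ± 30.0 and 337 ± 43.7 CPM in pit cells.

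The other 9 of the 34 were below 50 CPM in pit cells. They were Shh, Fer1l6, Cdc42ep2, Gm15318, Igsf9, 2210011C24Rik, Sectm1b, Pla2g12b and Acer1, between 11.8 and 36.5 CPM. Gm15318 overlaps Tff1 on chromosome 17 of GRCm38.p6, at 31152752 to 31163052 against 31161395 to 31165060, so its reads are uncertain. Just inside the threshold lay Papss2, 2210011C24Rik and Slc45a3, whose smallest gaps over libraries were 1.00, 1.01 and 1.02 log2 units. Just outside lay S100a6, Nqo1 and Lgals3 with smallest gaps of 0.99, 0.98 and 0.98. Values ran on across the threshold without a gap. Without TMM factors 17 genes met the rule.

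**Figure D2:**
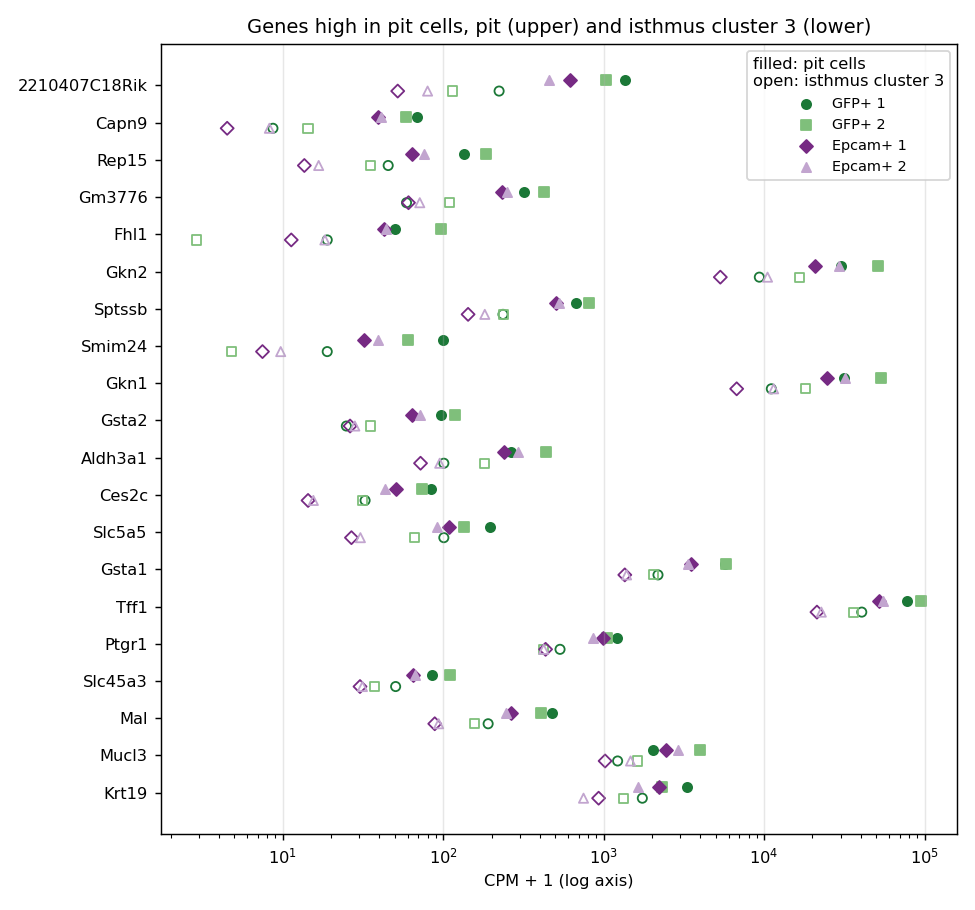
Levels of the 20 genes with the widest gap to the next cluster among those with at least 50 CPM in pit cells, 1 point per library, in pit cells (filled, upper) and isthmus cluster 3 (open, lower), as CPM plus 1 on a log axis. Each gene lies higher in pit cells in all 4 libraries, from 70158 against 30233 CPM for Tff1 to 50.9 against 7.95 CPM for Capn9.

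Set against isthmus cluster 3, the most similar cluster, pit cells held fewer transcripts of dividing cells and more of their surface products. With a margin of 1 log2 unit in every library, 76 of the 9801 genes were higher in pit cells (0.775%) and 378 lower (3.86%). Of 27 isthmus and proliferation genes, 17 were lower in pit cells by this margin and 1 (Ccnb2, a mitotic cyclin) was higher, with a median difference of -1.85 log2 units where the median of all genes was 0.06. Top2a, the topoisomerase of dividing cells, averaged 3.22 CPM in pit cells and 117 CPM in cluster 3. Uhrf1, which maintains DNA methylation at replication, averaged 2.53 CPM in pit cells and 149 CPM in cluster 3. Stmn1, a regulator of microtubules, averaged 59.4 CPM in pit cells and 392 CPM in cluster 3. Pcna, the sliding clamp of DNA replication, averaged 52.7 CPM in pit cells and 352 CPM in cluster 3. The lower genes also included Muc6, at 50.9 CPM in pit cells against 795 CPM in cluster 3. Among the higher genes Cdkn1a, the CDK inhibitor p21, averaged 113 ± 66.3 CPM in pit cells and 34.1 CPM in cluster 3. Sgk1, a serum-regulated kinase, averaged 63.3 CPM in pit cells and 12.6 CPM in cluster 3, and Hist1h2bc, a histone H2b gene, 199.7 CPM in pit cells and 57.1 CPM in cluster 3. Cluster 3 held only 17 and 10 cells in the GFP+ libraries, so the differences in those libraries rest on few cells. The median over all genes of the log2 difference between pit cells and cluster 3 was 0.06 with TMM scaling and -0.13 without it, and without it 44 genes were higher in pit cells.

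Set against neck cells, the other mucous lineage, 443 genes were higher in pit cells (4.52%) and 505 lower (5.15%). Gkn1 differed by 10.00 log2 units, Gkn2 by 9.97, Tff1 by 9.71, Muc5ac by 8.50 and Gsta1 by 8.49. Adh7, an alcohol and retinol dehydrogenase, averaged 439 ± 52.6 CPM in pit cells and 2.91 CPM in neck cells. Products of neck and chief cells were among the genes lower in pit cells. Muc6 averaged 50.9 CPM in pit cells and 5835 CPM in neck cells, Gkn3, the third gastrokine, 86.2 CPM and 3264 CPM, and A4gnt, the glycosyltransferase that caps Muc6 with its terminal sugar, 16.8 CPM and 528 CPM. Cblif, the intrinsic factor that carries vitamin B12, averaged 33.5 CPM in pit cells and 1275 CPM in neck cells. Tff2, by contrast, was as abundant in pit cells as in neck cells, at 20647 ± 6300 CPM and 24816 CPM, a log2 difference of 0.01 that ran from -0.56 to 0.70 over libraries.

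The gene lists place these differences in pathways. Of all 9801 genes, 0.775% were higher and 3.86% lower than in cluster 3 by the same margin. Against neck cells 4.52% were higher and 5.15% lower, and the list counts below are to be read beside these shares. Of 11 pit secreted products, 6 were higher than in cluster 3 and 7 higher than in neck cells, with 1 lower than in neck cells. Psca, a surface protein of gastric and prostate epithelium, averaged 3093 ± 898 CPM in pit cells and 1049 CPM in cluster 3, and was at 4509 CPM in cluster 1 chief cells, so it was not among the 34. Mucin folding and glycosylation genes passed the margin against neck cells, which make a mucin of their own, in the lower direction only. Of 25, 0 were higher than in neck cells and 8 were lower, among them Agr2, Galnt3, Gcnt1, St3gal4 and Creb3l1. Agr2, the disulfide isomerase that folds mucins, averaged 2143 ± 538 CPM in pit cells, against 3444 CPM in cluster 3 and 9429 in neck cells.

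Detoxifying and redox enzymes were often higher in pit cells than in neck cells. Of 43 measured at this level, 23 were higher in pit cells than in neck cells and 0 lower, with a median difference of 1.58 log2 units, where the median of all genes was 0.01. Against cluster 3 only 4 passed the margin (Gsta1, Gsta2, Gsta3 and Aldh3a1), with a median of 0.74. Mgst3, a membrane glutathione transferase and peroxidase, averaged 2808 ± 112 CPM in pit cells, against 1595 CPM in cluster 3 and 270 in neck cells. Gsto1, an omega-class glutathione transferase, averaged 2216 ± 228 CPM in pit cells, against 1531 CPM in cluster 3 and 625 in neck cells. Nqo1, a quinone reductase and textbook target of the transcription factor Nrf2, averaged 572 ± 78.5 CPM in pit cells, against 281 CPM in cluster 3 and 37.5 in neck cells. For all 3 the isthmus cluster lay between pit and neck cells.

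Keratins and brush border proteins were also higher in pit cells for part of their list. Of 24 keratins and brush border proteins, 12 were higher in pit cells than in neck cells, 5 higher than in cluster 3 and 0 lower than either. Krt8, a keratin that pairs with type I keratins, averaged 3744 ± 388 CPM in pit cells, against 2490 CPM in cluster 3 and 848 in neck cells. Ezr, which links microvillar membrane to actin, averaged 823 ± 25.7 CPM in pit cells and 269 CPM in neck cells. Krt20, a keratin of the mature surface epithelium, was low at 2.42 CPM in pit cells, and at or near 0 in cluster 3 and neck cells. Of 28 cholesterol and fatty acid genes, 10 were higher than in neck cells and 1 (Acsl1) lower, and 0 passed the margin over cluster 3 in either direction. The 10 included Hmgcs1 and Sqle of cholesterol synthesis. Hmgcs1 averaged 730 ± 142 CPM in pit cells, against 541 CPM in cluster 3 and 168 in neck cells.

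Transcription factors separated the 2 mucous lineages in both directions. Of 29, 6 were higher in pit cells than in neck cells (Klf4, Klf3, Elf3, Nkx6-3, Pparg and Tfcp2l1) and 7 were lower (Spdef, Klf5, Ehf, Sox2, Sox9, Creb3l1 and Esrrg). Klf4, a factor of postmitotic epithelial surfaces, averaged 1257 ± 142 CPM in pit cells, against 669 CPM in cluster 3 and 310 in neck cells. Foxq1, a forkhead factor needed for Muc5ac expression in the mouse stomach, averaged 1169 ± 195 CPM in pit cells, against 596 CPM in cluster 3 and 587 in neck cells. Pparg, a nuclear receptor of lipid metabolism, averaged 72.3 ± 19.7 CPM in pit cells, against 35.3 CPM in cluster 3 and 4.51 in neck cells. Spdef, a factor of mucous gland cell maturation, averaged 26.4 ± 9.77 CPM in pit cells and 223 CPM in neck cells, and Sox9 averaged 126 ± 37.1 CPM in pit cells and 517 CPM in neck cells. Over cluster 3, Foxq1 and Pparg passed the margin and 0 of the 29 were lower.

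Ligands of the EGF receptor and prostaglandin genes were higher in pit than in neck cells for 8 of 20 and lower for 0. These were Tgfa, Areg and Btc, which are EGF receptor ligands, Hpgd and Ptgr1, which break down prostaglandins, Pla2g10, a secreted phospholipase, and the morphogens Shh and Bmp2. Areg averaged 85.3 ± 21.9 CPM in pit cells, against 46.3 CPM in cluster 3 and 21.2 in neck cells. The cyclooxygenase genes Ptgs1 and Ptgs2, which start prostaglandin synthesis, were at or below 0.58 CPM in every library of pit cells. Of 11 mucosal defence genes, Il18, Il33 and Dmbt1 were higher in pit cells than in neck cells and Pigr, Wfdc2 and Bpifb1 lower. Of 24 junction genes, 2 were higher than in neck cells and 0 lower. Of 24 bicarbonate, ion and water transport genes, 3 were higher than in neck cells and 4 lower, and 2 were lower than in cluster 3. Cldn18, the claudin of the stomach, averaged 1311 ± 48.0 CPM in pit cells, against 1174 CPM in cluster 3 and 1016 in neck cells. Epcam itself, the antigen of the sort, averaged 341 ± 107 CPM in pit cells, against 469 CPM in cluster 3 and 773 in neck cells. Of the stress-related lists, 0 of 17 heat shock genes and 0 of 28 genes of endoplasmic reticulum folding and Atf4 targets were higher in pit cells than in either cluster, while 2 heat shock genes were lower than in neck cells and 1 of each list was lower than in cluster 3. Of 24 immediate-early genes, 4 were higher than in neck cells and 0 higher than in cluster 3. Of all genes, 4.52% were higher and 5.15% lower than in neck cells, and 0.775% higher and 3.86% lower than in cluster 3. Counts of 0 to 2 in lists this short are therefore not read as results about the lists.

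Pit cells were not uniform. Counts were thinned to 26019 UMIs per cell, which left 41 and 27 GFP+ pit cells and 327 and 400 Epcam+ pit cells, 795 in all. Thinned Gkn1 counts ran from 3 through a median of 644 to 3739 UMIs in GFP+ 1 and from 20 through 1152 to 3012 UMIs in GFP+ 2. In Epcam+ 1 they ran from 0 through a median of 400 to 2613 UMIs, and in Epcam+ 2 from 0 through 652.5 to 3109 UMIs. The range covers the mean of neck cells, 1.53 and 1.98 UMIs in Epcam+ 1 and 2, at its lower end. The median of neck cells was 1 and 2 UMIs in the same libraries. The median of isthmus cluster 3, 9 and 14.5 UMIs in Epcam+ 1 and 2, also lies towards that end. Its mean was higher, at 157 and 257 UMIs. Genes with the highest variance relative to the mean after thinning included Gkn2 (629 and 713 in Epcam+ 1 and 2), Tff1 (646 and 648), Pgc (479 and 459), Tff2 (341 and 403) and Gsta1 (56.2 and 51.1), where pure sampling gives about 1. Muc5ac, S100a6, Mucl3, Psca, Gkn3, Sprr2a3 and 2210407C18Rik were also among the 15 most variable genes by this ratio. For genes that vary beyond sampling, the ratio also rises with their level, so the ranking favours abundant genes. It does not order genes by their variation relative to their own level.

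Across Epcam+ pit cells, some genes followed Gkn1 and others ran against it. Spearman's rho with Gkn1, as the mean of the values within Epcam+ 1 (327 cells) and Epcam+ 2 (400 cells), was highest for Gkn2 (0.97), Tff1 (0.94), Gsta1 (0.84), Aldh3a1 (0.83) and Sptssb (0.81). It was lowest for the ribosomal protein genes Rplp1 (-0.80), Rpl12 (-0.77) and Rpl32 (-0.75), for Epcam (-0.76) and for Npm1 (-0.75), a nucleolar protein of ribosome assembly. Psca reached 0.80 and Krt19 0.68, and Muc5ac a weaker 0.60. Pgc (-0.73), Tff2 (-0.66) and Muc6 (-0.58), products of neck and chief cells, ran the other way. Of the 15 most variable genes, Sprr2a3 (-0.01), Gkn3 (-0.22) and Malat1 (-0.24) followed Gkn1 little in either direction. The cells of a library share its preparation, and since thinned counts have a fixed sum, genes as abundant as Gkn1 and Tff1 lower the others. When shares were taken of the UMIs other than Gkn1, Gkn2 and Tff1, rho was -0.63 for Rplp1, -0.70 for Epcam and 0.87 for Gsta1.

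To show the levels behind these ranks, the cells were put in 5 bins of Gkn1, with limits at 17.2, 281, 766 and 1339 thinned UMIs that divide the pooled Epcam+ pit cells equally. In bins 1 to 5 of Epcam+ 1, mean Tff1 was 138, 738, 1492, 1999 and 2576 UMIs per cell, and in Epcam+ 2 it was 113, 677, 1343, 1863 and 2537. Mean Gsta1 was 14.3 UMIs in bin 1 and 154 in bin 5 of Epcam+ 1, and 15.1 and 153 in Epcam+ 2. Both genes climbed through all 5 bins in both libraries. Mean Muc5ac was 10.3, 50.8, 68.2, 92.3 and 107 UMIs in Epcam+ 1 and 24.3, 57.1, 94.2, 100.2 and 99.2 in Epcam+ 2, so most of its increase lay in the lower bins. Mean 2210407C18Rik was 0.43 UMIs in bin 1 and 35.6 in bin 5 of Epcam+ 1, and 0.26 and 26.4 in Epcam+ 2. Mean Klf4 was 18.1 UMIs in bin 1 and 43.3 in bin 5 of Epcam+ 1, and 17.6 and 35.7 in Epcam+ 2, a shallower slope than that of the secreted products.

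The opposite set declined over the same bins. Mean Pgc was 692, 356, 112, 86.7 and 50.5 UMIs in Epcam+ 1 and 750.4, 323, 171, 127 and 52.3 in Epcam+ 2. Mean Tff2 was 935, 1012, 647, 447 and 231 UMIs in Epcam+ 1 and 1041, 1006, 664, 487 and 212 in Epcam+ 2, so most of its decline lay after bin 2. Bin 1 was not a set of neck cells, since it held a mean of 7.81 and 5.20 Muc6 UMIs in Epcam+ 1 and 2, where neck cells held 167 and 96.2. Isthmus cluster 3 was close to bin 1 in mean Npm1, at 28.1 and 28.9 UMIs against 28.0 and 27.4 in bin 1. Mean Stmn1 was higher in cluster 3, at 10.2 and 13.1 UMIs against 3.21 and 2.77 in bin 1. The 84 ribosomal protein genes together gave 5291 UMIs in bin 1 and 3059 in bin 5 of Epcam+ 1, and 4983 and 3083 in Epcam+ 2. Epcam was at 20.5 UMIs in bin 1 and 4.80 in bin 5 of Epcam+ 1, and at 19.7 and 5.07 in Epcam+ 2. Thinned counts have a fixed sum, which enters all these declines. In bin 5 of Epcam+ 1, Gkn1, Gkn2 and Tff1 took 1733, 1514 and 2576 UMIs, against 4.11, 2.71 and 138 in bin 1. The bins were not recomputed without these genes. Before thinning, median depth was 35314 UMIs in bin 1 and 48990 in bin 5 of Epcam+ 1. The bins are cuts of a continuous range, and 8, 20, 52 and 56 pit cells lay within 10% of the 4 limits.

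**Figure D3:**
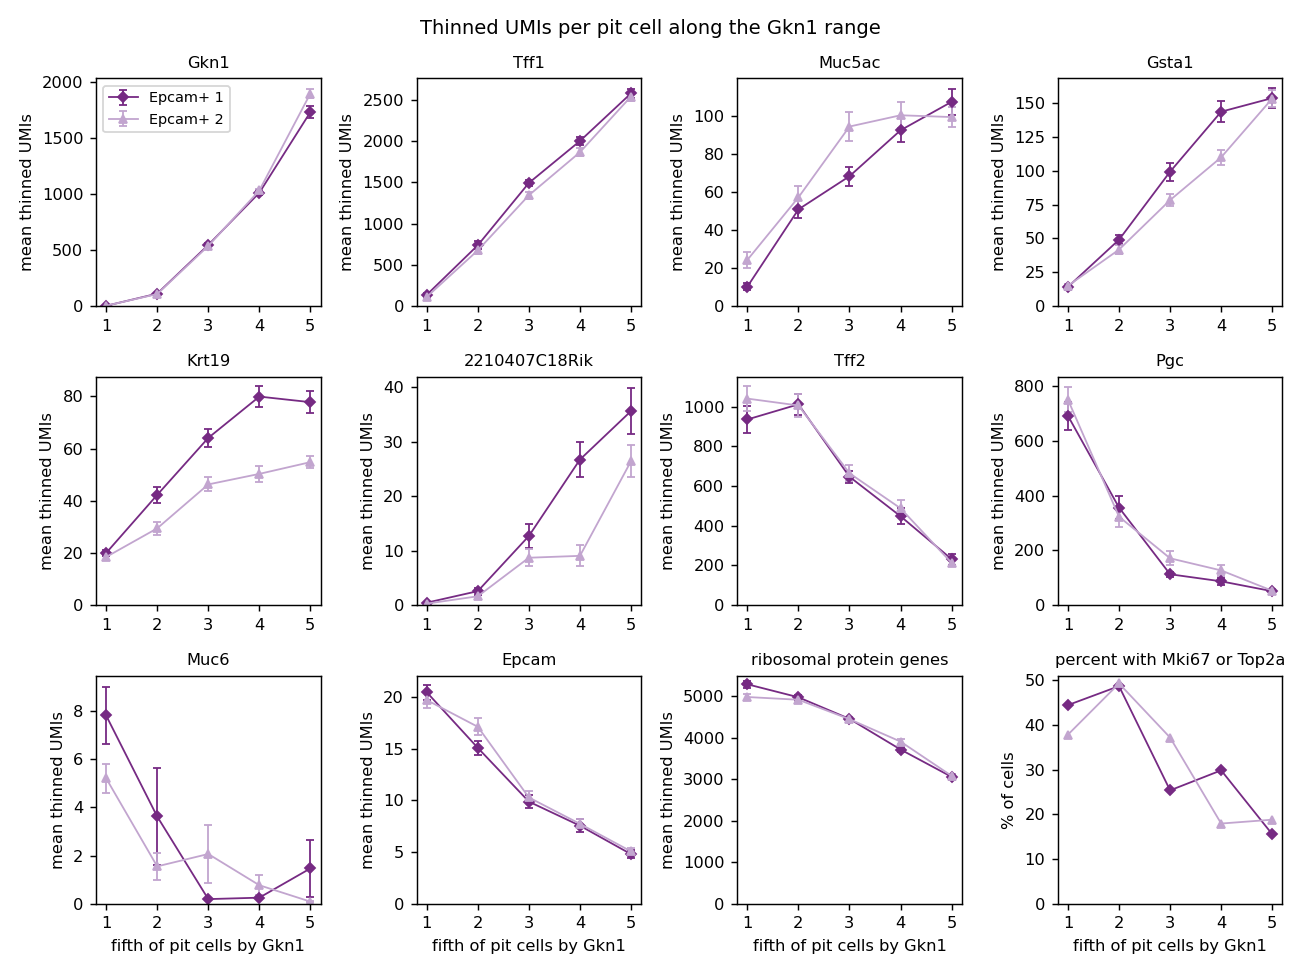
Mean thinned UMIs per pit cell of 11 genes or gene groups in 5 bins of rising Gkn1, for Epcam+ 1 and Epcam+ 2, with the standard error over cells as bars; the last panel gives the percentage of cells with an Mki67 or Top2a UMI. Tff1 is at 138 and 113 UMIs in bin 1 and at 2576 and 2537 UMIs in bin 5, while Pgc is at 692 and 750.4 UMIs in bin 1 and at 50.5 and 52.3 UMIs in bin 5.

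Some pit cells held transcripts of dividing cells. At the common depth an Mki67 or Top2a UMI was found in 24.4% and 22.2% of GFP+ pit cells and in 34.6% and 31.0% of Epcam+ pit cells, against 71.8% and 77.4% of cluster 3 cells and 19.3% and 26.3% of neck cells in the Epcam+ libraries. The share in pit cells thus lay nearer to that of neck cells. Unthinned, it was 45.2% and 37% of GFP+ and 43.8% and 37.6% of Epcam+ pit cells. In bins 1 to 5 of Gkn1 it was 44.4%, 48.7%, 25.4%, 29.9% and 15.6% in Epcam+ 1 and 37.8%, 49.3%, 37.2%, 17.9% and 18.8% in Epcam+ 2. Epcam+ pit cells with such a UMI held a mean of 410 Gkn1 UMIs in replicate 1 and 552 in replicate 2, against 678 and 919 in those without one. The log2 difference was -0.73 and -0.74. Stmn1 was higher in the cells with such a UMI, at 4.49 and 3.97 UMIs, against 1.29 and 1.02 in those without one, while Pcna differed by -0.20 and -0.05 log2 units. In the GFP+ libraries, with 10 and 6 such cells, Pcna differed by 0.47 and 0.94 log2 units. The phase of the cycle is not read from these UMIs.

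Pit cells made up a smaller share of the GFP+ libraries. They were 8.99% (95% Wilson interval 6.72% to 11.9%) and 6.08% (4.21% to 8.70%) of the cells in GFP+ 1 and 2, against 22.1% (20.2% to 24.2%) and 23.8% (22% to 25.8%) in Epcam+ 1 and 2. The mean was 7.54 ± 2.06% in GFP+ and 23 ± 1.23% in Epcam+ libraries (SD, n = 2 each), a difference of -15.4 percentage points. The groups do not overlap, and the exact permutation test (two-sided) gave p = 0.333, the smallest that 6 labelings allow. The edgeR quasi-likelihood test on the numbers of cells per cluster gave a log2 ratio of -1.60 ± 0.35 (SE, adjusted p = 0.0005 over 10 clusters), which was -1.66 with an adjusted p of 0.0529 without Epcam+ 1. Chief cells of cluster 1 filled much of the GFP+ libraries, and shares must sum to 100%. Of the cells outside cluster 1, pit cells were 13.0% and 14.4% in the GFP+ libraries and 25.2% and 28.2% in the Epcam+ libraries.

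Along the Gkn1 range, GFP+ pit cells of replicate 2 were placed higher than those of the other libraries. Bin 1 held 4 of 41 cells (9.76%) in GFP+ 1 and 0 of 27 in GFP+ 2, which allows a share of up to 11.1%, against 22% in Epcam+ 1 and 18.5% in Epcam+ 2. Bin 5 held 17.1% and 44.4% of the pit cells in GFP+ 1 and 2, against 13.8% and 25.3% in Epcam+ 1 and 2. The GFP+ and Epcam+ libraries thus overlapped in bin 5 and not in bin 1, on small numbers of GFP+ cells.

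Within pit cells, GFP+ and Epcam+ libraries were compared with the edgeR quasi-likelihood test on the 4 summed profiles, with TMM factors and adjustment over 10983 genes. At an adjusted p under 0.05, 40 genes differed (0.364%), of which 23 were higher in GFP+ (0.209%) and 17 lower (0.155%). With library totals in place of TMM factors the split was 7 higher and 17 lower, and the median log2 fold change of all genes was -0.13, against -0.004 with TMM. The levels below are TMM-scaled CPM. Lgals4, a galectin of apical membrane traffic in the gut, had 292 and 284 CPM in GFP+ pit cells and 129 and 136 CPM in Epcam+ pit cells, a log2 fold change of 1.13 ± 0.10 (SE, edgeR adjusted p = 0.0151). Hsd17b11, a steroid dehydrogenase of lipid droplets, had 214 and 237 CPM in GFP+ pit cells and 108 and 101 CPM in Epcam+ pit cells (log2 fold change 1.11, edgeR adjusted p = 0.0151). Gsta1 had 5794 and 6173 CPM in GFP+ pit cells and 3352 and 3237 CPM in Epcam+ pit cells (log2 fold change 0.86 ± 0.08, edgeR adjusted p = 0.0151). All 3 lay above the Epcam+ libraries in both GFP+ libraries by more than the libraries of a group differed. Rep15 had 136 and 198 CPM in GFP+ pit cells and 59.6 and 71.7 CPM in Epcam+ pit cells (log2 fold change 1.33 ± 0.18, edgeR adjusted p = 0.0406). Mal had 487 and 434 CPM in GFP+ pit cells and 252 and 236 CPM in Epcam+ pit cells (log2 fold change 0.92, edgeR adjusted p = 0.0220). Smim24 (1.35), 2210407C18Rik (1.29), Plk3 (1.06), a stress-responsive polo-like kinase, Tmsb10 (0.93), an actin monomer binder, and Ces2c (0.90) were also higher in GFP+, with edgeR adjusted p-values between 0.0262 and 0.0494.

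Among the genes lower in GFP+ pit cells, Spp1, the secreted phosphoprotein osteopontin, had 33.7 and 31.6 CPM in GFP+ pit cells and 112 and 88.0 CPM in Epcam+ pit cells (log2 fold change -1.61 ± 0.17, edgeR adjusted p = 0.0168). Fam3c, a secreted cytokine-like protein, had 78.3 and 83 CPM in GFP+ pit cells and 173 and 160 CPM in Epcam+ pit cells (log2 fold change -1.05, edgeR adjusted p = 0.0168). The groups were well separated for both. Erlin1 (-0.97), a protein of endoplasmic reticulum lipid rafts, Fundc2 (-0.76), a mitochondrial outer membrane protein, H2afv (-0.74), a histone H2A.Z gene, and Lrpap1 (-0.72), a chaperone of lipoprotein receptors, fell too, with edgeR adjusted p-values between 0.0220 and 0.0492. Birc5, the mitotic protein survivin, had 6.38 and 7.43 CPM in GFP+ pit cells and 20.6 and 19.8 CPM in Epcam+ pit cells (log2 fold change -1.57, edgeR adjusted p = 0.0349). It was the 1 called member of 26 tested proliferation genes.

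Of the pit markers only Tff1 passed the test, with 79852 and 102159 CPM in GFP+ pit cells and 49570 and 53086 CPM in Epcam+ pit cells (log2 fold change 0.83 ± 0.12, edgeR adjusted p = 0.0428). Gkn2 (0.85, edgeR adjusted p = 0.188), Gkn1 (0.72, 0.219), Krt19 (0.67, 0.140) and Muc5ac (0.31, 0.244) did not. With the replicate number as a block, a pairing that no label gives, Gkn2, Gkn1 and Krt19 passed, as described further on. The values of the markers that did not pass moved when 1 library was left out, most for Gkn1 and Gkn2. With 1 library left out, a group has no replicate, so only log2 values are given. Gkn1 was 1.07 without GFP+ 1, 0.25 without GFP+ 2 and 0.92 without Epcam+ 2. Gkn2 was 1.20 without GFP+ 1, 0.36 without GFP+ 2 and 1.13 without Epcam+ 2. Krt19 was 0.43 without GFP+ 1, 0.87 without GFP+ 2 and 0.89 without Epcam+ 1. Muc5ac ran from 0.19 without Epcam+ 1 to 0.45 without Epcam+ 2. Psca, with 3725 and 4358 CPM in GFP+ pit cells and 2199.7 and 2264 CPM in Epcam+ pit cells, passed at 0.86 (edgeR adjusted p = 0.0244). All 34 genes high in pit cells had a positive log2 fold change of GFP+ over Epcam+, with a median of 0.75 (0.63 with library totals, again with all 34 positive), and 8 of the 34 were called higher, where 0.209% of all genes were, and 0 lower. These genes were chosen for their level in the same cells, in all 4 libraries. Several of them, such as Gkn2, Tff1, Gsta1, Aldh3a1 and Sptssb, also followed Gkn1 from cell to cell. The 34 are therefore not separate observations, and their shared direction is no test. Of the other lists, 1 of 1 tested tuft marker (Avil, 0.98), 1 of 44 detoxifying enzymes (Gsta1) and 1 of 26 keratins and brush border proteins (Lgals4) were higher, 1 of 17 defence genes (Wfdc2) was lower, and 0 of 17 heat shock genes and 0 of 29 endoplasmic reticulum and Atf4 genes passed. Muc6 (-2.59, edgeR adjusted p = 0.0698), Epcam (-0.66, 0.0636) and Stmn1 (-0.85, 0.0698) were lower in GFP+ without passing.

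These calls depend on the cells and on the test. Without the pit cells that held an Mki67 or Top2a UMI, 0 of 10096 genes passed in edgeR (1110 at an unadjusted p under 0.05), while DESeq2 called 26 on the same cells. The cells left out were those with such a UMI before thinning, at the unthinned shares given above. Fewer cells and UMIs per library thus remained, and the part of this in the lost calls was not tested. The log2 fold changes of some named genes stayed close to those with all cells, at 1.29 for Rep15, 1.06 for Hsd17b11, 0.89 for Tmsb10 and -1.49 for Spp1, and others were smaller, at 0.62 for Plk3 and -0.39 for H2afv. Leaving out GFP+ 1, GFP+ 2, Epcam+ 1 or Epcam+ 2 gave 116, 132, 114 and 156 calls in this order, against 40 with all libraries. With sums of cells thinned to 1 depth, 83 genes passed, 31 of them among the 40. The depth per cell, the position along the Gkn1 range and the immune sum moved with the sort, and their part in the differences was not tested. The immune sum was 10.4 to 71.7 CPM in GFP+ and 1.11 to 1.80 CPM in Epcam+ pit cells. All of it was Cd74, whose 199 UMIs lay in only 18 pit cells, with 94.0% of them in 9 cells.

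**Figure D4:**
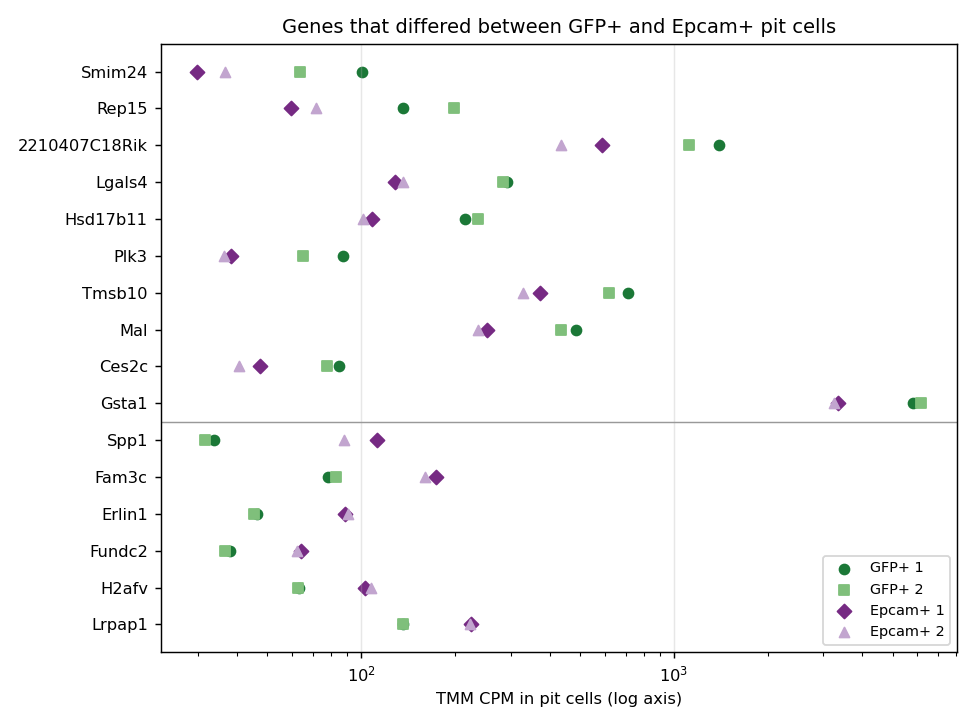
TMM-scaled CPM, on a log axis, of the 16 named genes that differed between GFP+ and Epcam+ pit cells, 1 point per library, with the 10 higher in GFP+ above the line and the 6 lower in GFP+ below it. For each gene both GFP+ points lie on the same side of both Epcam+ points, as for Lgals4 (292 and 284 CPM in GFP+, 129 and 136 CPM in Epcam+).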

How the data were processed

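The authors aligned reads to mm10 in Cell Ranger 3.0.2 and deposited raw UMI counts (whole numbers) for 17712 genes in 4449 cells, with the library and cluster of each cell. They had removed cells with any Ptprc or Pecam1 count, among other filters. The resolution behind the clusters is not given in the sources used here. Library totals were 35571141 and 47222033 UMIs in GFP+ 1 and 2 and 73876885 and 79455225 UMIs in Epcam+ 1 and 2.

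Sums were taken over the cells of each cluster in a library. The pit cell sums of GFP+ and Epcam+ libraries were tested with edgeR 4.0.16 in R 4.3.3 (TMM, filterByExpr, quasi-likelihood test, two-sided, Benjamini-Hochberg at 0.05). Cells per cluster were tested with the same quasi-likelihood test and adjustment. There the cells of each library served as its size, without TMM or filterByExpr. Cluster profiles were compared inside each library as log2(TMM CPM + 1), with no test. For values per cell, cells were thinned without replacement to 26019 UMIs, the 10th percentile of pit cells, and 89 shallower pit cells were left out. Doublets were called with Scrublet in scanpy 1.11.5, cells were clustered again with Seurat 5.3.0, and intervals are Wilson intervals from scipy 1.17.1. The edgeR test of GFP+ against Epcam+ pit cells was also run on simulated counts with the same dispersion for every gene. Real genes differ in dispersion, so that run is not used to judge the calls above.

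The pit cells, the 28 gene lists and the rules were chosen with earlier results of these data known. Named are the 5 markers, the 10 most abundant genes, 20 genes high in pit cells, up to 6 abundant members per list, the 10 largest rises and 10 largest falls with at least 50 CPM (6 falls qualified), the 15 most variable genes and 5 genes at each end of the correlation with Gkn1. Other genes named were chosen after their values were seen. Alternatives were other scaling factors, DESeq2 1.42.0, no filter, a replicate block, cells or libraries left out, other thresholds and no thinning. A further 3 were chosen after seeing the data: thinned sums, DESeq2 without cells holding an Mki67 or Top2a UMI, and shares of UMIs other than Gkn1, Gkn2 and Tff1.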

Additional observations from a re-analysis of the deposited data

How the results depend on the processing

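The number of genes that differed between GFP+ and Epcam+ pit cells, 40 as reported, was 24 with library totals and no scaling factors, 161 with DESeq2, 639 with no filter on low counts, 83 with thinned sums (chosen after seeing the data) and 0 without the cells holding an Mki67 or Top2a UMI (26 with DESeq2 on the same cells, also chosen after seeing the data). With no scaling the split was 7 higher and 17 lower in GFP+, against 23 and 17 with TMM. With the replicate number as a block it was 222, 40 of them shared; same-numbered libraries deviated together (correlation 0.306), but only a number links them. With the block Krt19, Gkn2 and Gkn1 passed (edgeR adjusted p = 0.00731, 0.0100 and 0.0281). Leaving out 1 library gave 114 to 156 calls, with the lone library assumed to vary like the others. The cause of these changes was not tested. All 294 recomputed log2 values of 21 named genes kept their direction, 46 losing the threshold and 12 gaining it. Apart from the pit markers, these genes were named because they differed between the sorts in the same libraries. The alternatives reuse those libraries, so the kept direction was largely set by this choice and is not a separate test of it.

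The log2 ratio of the pit share was -1.92 to -1.35 with 1 library left out, and -0.98 of the cells outside cluster 1; with the block it was -1.62 (edgeR adjusted p = 0.0424). The 34 genes high in pit cells became 17 without TMM, 0 at a log2 difference of 2, and 33 to 37 with 1 library left out. Genes low in pit cells numbered 2 with at least 20 cells per cluster and 0 to 4 with 1 library left out, 4 of them without Epcam+ 2. Without TMM 44 genes were above cluster 3. Without thinning rho with Gkn1 was -0.23 for Rplp1, -0.28 for Rpl12, -0.21 for Rpl32, -0.45 for Npm1 and -0.57 for Epcam.

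With 42 and 27 pit cells, the GFP+ libraries limit precision for genes of low level, and clusters 8 and 9 had under 10 cells in both. Clusters 4 and 7 had under 10 in GFP+ 2. Free RNA sets a floor for abundant secretory genes in all cells.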

Other observations

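A few pit cells carried a large share of the counts of some genes. Chia1, the acidic chitinase of chief cells, had 3337 UMIs in pit cells, of which 1427 (42.8%) lay in 1 cell of GFP+ 1 that was not called a doublet. Pla2g1b, a phospholipase of chief cells, had 31480 UMIs, of which 5482 (17.4%) lay in 1 cell of GFP+ 1, and Furin had 544 UMIs, 162 of them (29.8%) in 1 cell of the same library. The ranges of the chief marker sum between the GFP+ libraries rest in part on such cells. Cd74, the invariant chain of antigen presentation, had 199 UMIs in 18 pit cells, and 9 cells held 94.0% of them. Lypd8, a surface protein of the gut that keeps bacteria at a distance, had 72.5 and 541 CPM in GFP+ pit cells and 98.5 and 78.9 CPM in Epcam+ pit cells, and 441 of its 3844 UMIs (11.5%) lay in 1 cell of GFP+ 2. Krt7 had 698 UMIs, of which 38.5% lay in 9 cells.

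Sprr2a3, a small proline-rich protein of stressed and cornified epithelia, was spread more widely, with 9376 UMIs in 733 of the 884 pit cells. Arc, an immediate-early gene best known from neurons, had 1203 UMIs in 170 pit cells.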
